A study of Mus musculus with 9 samples.

Results

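The genes of prostaglandin E2 synthesis, breakdown, transport and reception were described in mouse mammary tumours grown from 3 transplantable cell lines, NDL, Met1 and SSM2. The family was listed by name as 10 genes, and 9 of them had an array feature annotated with that single symbol, out of 19938 genes measured in all. Ptgs1, the constitutive cyclooxygenase, was not analysed here. Each of the 9 had 1 feature, so picking the brightest feature per gene left nothing to choose. The family was chosen by name, but from earlier results of these arrays that showed the difference in Ptgs2 between NDL and Met1, so that difference is given here as a description without a test. Counts of members passing between NDL and Met1 include it and are to be read with that in mind. The Ptgs2 result between NDL and SSM2 uses the same NDL arrays, so it is not independent of that choice.

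Total RNA came from snap-frozen tumours, 3 samples per line, each on 1 Affymetrix Mouse Gene 1.0 ST array. The hosts were FVB/NJ females, injected in the fat pad at an age of 6 to 8 weeks, and the labels name no treatment. As background, NDL carries an activated ErbB2 transgene and Met1 derives from a tumour driven by the polyoma middle T antigen, both under the MMTV promoter, and SSM2 is a hormone receptor-positive mouse mammary tumour line. Each line is a single cell line grown in hosts with their own stroma and immune cells, and no normal mammary tissue served as a control. The labels do not say that the samples of a line came from separate tumours or animals, so each p measures only the spread between samples, which may be technical. In these bulk samples fewer cells of a type and less RNA per cell cannot be told apart.

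As background, cyclooxygenases turn arachidonic acid into prostaglandin H2, which the PGE synthases convert to prostaglandin E2. The transporter Slco2a1 carries prostaglandins into cells, where the dehydrogenase Hpgd inactivates them. Prostaglandin E2 acts through 4 receptors, of which Ptger2 and Ptger4 raise cyclic AMP, Ptger3 lowers it and Ptger1 acts through calcium. Ptgs2 is known in mammary and other carcinomas as the inducible, inflammation-linked enzyme of the pathway, and Hpgd as a gene often lost in tumours.

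The promoters of the 4 members whose line means spanned the widest range are shown, since these are the members with the largest differences in level, whether or not they passed a test. The sequences are RefSeq's (GRCm38.p6), 5′ to 3′ on the gene's strand, with the 250 bases before the annotated start and the first 30 bases after it. Ptgs2 lies at chr1:150099781-150100060, forward strand, Ptges at chr2:30903268-30903547, reverse strand, Hpgd at chr8:56294302-56294581, forward strand and Slco2a1 at chr9:103008237-103008516, forward strand. Capitals mark matches to the motifs searched, on both strands. Core promoter motifs were the TATA box, spelled TATAAA, and the GC box, spelled GGGCGG. The E-box bound by basic helix-loop-helix factors was spelled CACGTG. Cyclic AMP response elements were searched in the full form TGACGTCA, which contains the short form TGACG that was searched as well. The AP-1 element was spelled TGACTCA and the C/EBP-like element TTNCNNAA, and the NF-kB consensus was also searched.
Ptgs2: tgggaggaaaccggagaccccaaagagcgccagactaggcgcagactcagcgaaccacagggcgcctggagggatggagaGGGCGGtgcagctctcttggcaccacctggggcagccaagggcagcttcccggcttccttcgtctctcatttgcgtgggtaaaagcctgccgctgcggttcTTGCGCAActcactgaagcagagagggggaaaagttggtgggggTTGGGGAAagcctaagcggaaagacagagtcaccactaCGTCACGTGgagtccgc
Ptges: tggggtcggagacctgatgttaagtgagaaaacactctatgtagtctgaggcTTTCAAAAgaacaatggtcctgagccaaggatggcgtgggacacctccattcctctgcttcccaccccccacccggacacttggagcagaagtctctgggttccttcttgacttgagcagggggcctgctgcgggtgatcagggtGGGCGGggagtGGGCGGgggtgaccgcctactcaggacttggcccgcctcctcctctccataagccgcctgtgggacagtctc
Hpgd: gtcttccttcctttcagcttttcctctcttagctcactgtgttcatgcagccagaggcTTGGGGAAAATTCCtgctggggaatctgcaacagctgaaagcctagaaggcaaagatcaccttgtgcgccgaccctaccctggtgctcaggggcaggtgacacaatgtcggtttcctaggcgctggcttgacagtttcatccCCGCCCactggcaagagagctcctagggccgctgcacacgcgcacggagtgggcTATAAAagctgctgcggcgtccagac
Slco2a1: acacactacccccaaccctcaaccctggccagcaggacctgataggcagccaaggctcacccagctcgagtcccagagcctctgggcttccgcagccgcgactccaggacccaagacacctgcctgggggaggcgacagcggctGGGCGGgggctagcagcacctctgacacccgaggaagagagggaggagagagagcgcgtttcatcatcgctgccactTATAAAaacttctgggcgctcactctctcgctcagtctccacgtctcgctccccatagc

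The Ptgs2 window held a GC box at position -170 and a palindromic C/EBP-like match at -69, with another C/EBP-like match at -25, where positions count from the annotated start. It also held an E-box at position 17 that overlaps a TGACG match on the reverse strand at position 14. Of 32851 RefSeq windows of 300 bases, 7.15% held the E-box, 20.8% TGACG, 40.7% the C/EBP-like motif and 35.7% the GC box. The Ptges window held GC boxes at -53 and -42 and a C/EBP-like match at -198. The Hpgd window held an NF-kB consensus match at -188 that overlaps a C/EBP-like match at -192, and TATAAA at position 5. Slco2a1 had TATAAA at -29 and a GC box at -106. The NF-kB consensus occurred in 10.5% of all windows, TATAAA in 13.6%, TGACTCA in 5.2% and TGACGTCA in 1.79%, and the last of these had no match in any of the 4 windows, nor had TGACTCA. The matches describe these letters and show no binding.

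Values below are log2 RMA signals as deposited, and levels are compared between lines for 1 gene at a time. The upper quartile of gene signal ran from 7.84 to 8.09 over the 9 arrays. The 25th percentile of mean gene signal was 4.91, and the 3 measured Y-linked transcripts, a guide to background in female hosts, lay between 2.61 and 3.85; a difference from a level near these has an uncertain size. All 12 epithelial marker genes had a mean above that percentile in every line. SSM2 replicate 3 stood apart for this family: it was the lowest of the SSM2 arrays for 8 of the 9 members, against 31.8% of all genes, so results on SSM2 that it moves are also given without it. It was picked out by these same values, so a call gained without it shows only how far a result rests on that array.

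**Figure D1:**
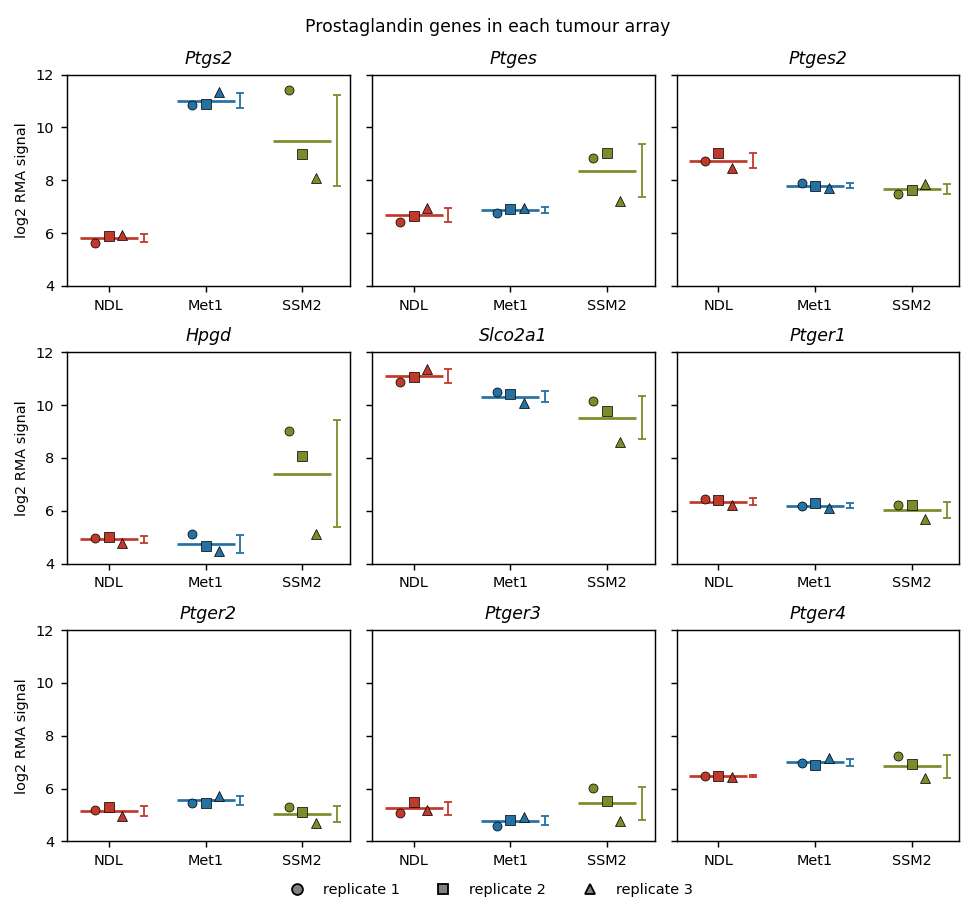
Log2 RMA signal (vertical axis) of the 9 measured prostaglandin genes in the 3 lines; each symbol is 1 array, the horizontal bar the mean and the error bar the SD of 3 arrays. Ptgs2 lies between 5.63 and 5.93 in NDL and above 8 in all other arrays, and the SSM2 arrays are the most scattered for Ptgs2, Hpgd and Ptges.

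Ptgs2 was low in NDL tumours and high in Met1 tumours, with SSM2 between and widely spread. Its signal (feature 10350516) was 5.63, 5.88 and 5.93 in the NDL arrays, 10.83, 10.87 and 11.35 in Met1, and 11.41, 8.99 and 8.07 in SSM2. The lowest Met1 array was far above the highest NDL array, and the SSM2 arrays ran from above every Met1 array to well below them all. The mean was 5.82 ± 0.16 in NDL, 11.02 ± 0.29 in Met1 and 9.49 ± 1.73 in SSM2 (SD, n = 3). NDL lay below Met1 by 36.8-fold (log2 difference -5.20, SE 0.70), a difference matched or passed in size by 7 of 19938 genes including itself. NDL also lay 12.8-fold below SSM2 (log2 difference -3.68, SE 0.70, limma adjusted p = 0.00956), with no overlap of arrays. The low NDL arrays were part of why the family was chosen, so this p is not independent of that choice. That call stood in each of the 9 fits with 1 array left out, and the difference was -4.39 without SSM2 replicate 3 (adjusted p = 0.00272) and -2.72 without SSM2 replicate 1 (adjusted p = 0.00117). With NDL replicate 3 as the only NDL array it was -3.56 and did not pass (adjusted p = 0.163). Met1 and SSM2 overlapped and did not differ beyond their spread (log2 difference 1.52, 95% interval -0.09 to 3.14, adjusted p = 0.239), and the size rested on single SSM2 arrays. Without SSM2 replicate 1, the array as high as Met1, the difference was 2.49 (adjusted p = 0.00201), and without SSM2 replicate 3 it was 0.81 (adjusted p = 0.514).

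Ptges, the inducible PGE synthase that is functionally coupled to Ptgs2, was high in a different line from the one with the highest mean Ptgs2. Its signal (feature 10481518) was 6.44, 6.63 and 6.96 in NDL, 6.76, 6.91 and 6.96 in Met1, and 8.84, 9.03 and 7.20 in SSM2. The NDL and Met1 ranges overlapped, with 2 NDL arrays below all Met1 arrays, while all 3 SSM2 arrays lay above them. NDL was 3.21-fold below SSM2 (log2 difference -1.68, SE 0.43, adjusted p = 0.0298). The call depended on single arrays: it was lost without NDL replicate 1 or 2, any 1 of the 3 Met1 arrays, or SSM2 replicate 1 or 2, with adjusted p from 0.0502 to 0.106, and without SSM2 replicate 3 the difference was -2.26 (adjusted p = 0.000172). Met1 also lay below SSM2, without overlap, and missed the threshold (-1.48, SE 0.43, adjusted p = 0.0599), but passed without SSM2 replicate 3 (-2.06, adjusted p = 0.000352). Between NDL and Met1 the difference was -0.20 (95% interval -1.17 to 0.77, adjusted p = 0.775).

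Ptges2, a constitutive PGE synthase, was highest in NDL, the line with the least Ptgs2. The arrays read 8.73, 9.04 and 8.47 in NDL, 7.89, 7.78 and 7.71 in Met1, and 7.49, 7.63 and 7.86 in SSM2 (feature 10471411). Every NDL array was above every other array, and Met1 and SSM2 overlapped. NDL exceeded Met1 by 1.93-fold (log2 difference 0.95, SE 0.16, adjusted p = 0.00442) and SSM2 by 2.12-fold (1.08, SE 0.16, adjusted p = 0.00298). Both calls stood in all 9 fits with 1 array left out. With NDL replicate 3 as the only NDL array the call against Met1 was lost (0.67, adjusted p = 0.0658), and against a minimum fold of 1.5 both were lost (adjusted p = 0.305 and 0.144). Met1 and SSM2 differed by 0.14 (95% interval -0.23 to 0.50, adjusted p = 0.729).

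Hpgd, the enzyme that begins prostaglandin breakdown, was near background in NDL and Met1 and high in only 2 of the 3 SSM2 arrays. It read 4.98, 5.00 and 4.77 in NDL, 5.14, 4.65 and 4.47 in Met1, and 9.02, 8.06 and 5.14 in SSM2 (feature 10571840). SSM2 replicate 3 stood at the level of the highest Met1 array, and the SSM2 range of 3.88 was matched or passed by 0.145% of all genes. Neither contrast with SSM2 passed the test on all arrays: NDL was lower by 2.49 on the log2 scale (SE 0.82, adjusted p = 0.0727) and Met1 by 2.65 (SE 0.82, adjusted p = 0.0773). Without SSM2 replicate 3 the log2 differences were -3.62 for NDL (adjusted p = 0.000286) and -3.79 for Met1 (adjusted p = 0.000311). No other array left out gave a call, although Met1 against SSM2 also passed with array weights. Over all the alternative settings described at the end, the differences ran from -3.62 to -1.68 for NDL and from -3.79 to -1.85 for Met1. The sizes are uncertain, since the NDL and Met1 means of 4.92 and 4.75 lay at the 25th percentile of gene signal or below it. NDL and Met1 differed by 0.16 (95% interval -1.71 to 2.04).

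Slco2a1, which clears prostaglandins from outside the cell, was highest in NDL and lowest in SSM2. The arrays read 10.88, 11.06 and 11.39 in NDL, 10.49, 10.41 and 10.07 in Met1, and 10.16, 9.79 and 8.60 in SSM2 (feature 10588263). The NDL arrays did not overlap with either other line, while the highest SSM2 array lay within Met1. NDL exceeded SSM2 by 3.01-fold (log2 difference 1.59, SE 0.36, adjusted p = 0.0194), or by 1.13 without SSM2 replicate 3 (adjusted p = 0.0093), and the call was lost without NDL replicate 2 (1.61, adjusted p = 0.0562). It was also lost with the 2 lines fitted alone (adjusted p = 0.0657), against a minimum fold of 1.5 (adjusted p = 0.207) and with NDL replicate 3 as the only NDL array (1.87, adjusted p = 0.137). The neighbouring steps of the order did not pass, with 0.79 between NDL and Met1 (95% interval -0.04 to 1.61, adjusted p = 0.17; 0.0195 without SSM2 replicate 3, which enters through the shared spread) and 0.81 between Met1 and SSM2 (95% interval -0.02 to 1.63, adjusted p = 0.221; 0.35 without SSM2 replicate 3, adjusted p = 0.38). The difference between NDL and Met1 also passed with the 2 lines fitted alone. Endothelial cells are a known site of Slco2a1. The mean of 12 endothelial markers was at most 6.998 in NDL, at most 7.28 in Met1 and at most 7.70 in SSM2, with no gene of the list under the 25th percentile of signal in any line. The list mean was lowest in NDL, where Slco2a1 was highest, but the list median was -0.01 for NDL against Met1 and -0.36 for NDL against SSM2. Only Flt1 was called lower in NDL than in Met1 (-1.90, limma adjusted p = 0.000301), and 2 genes were lower than in SSM2, with none higher. Of all genes 10.2% and 7.52% were lower. The part of endothelial cells in the Slco2a1 result was not tested.

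**Figure D2:**
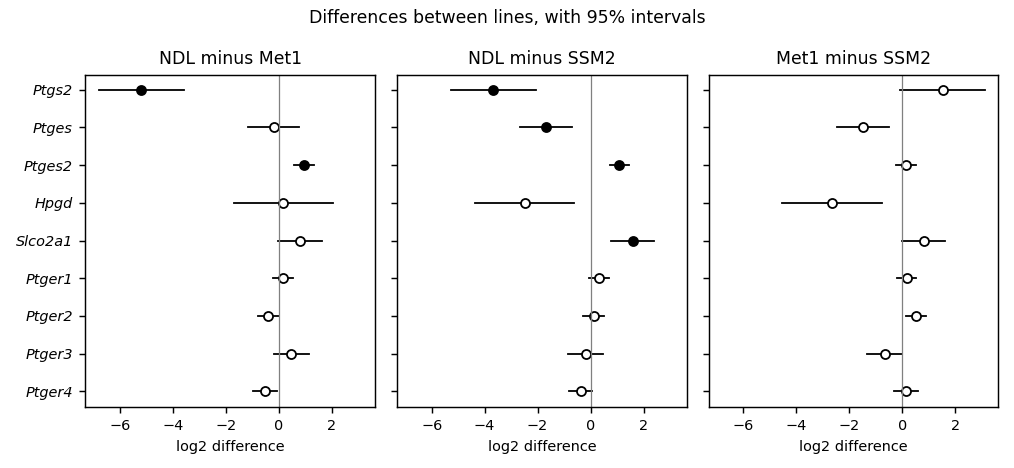
Log2 difference between lines (horizontal axis) for each gene, with its 95% interval; filled points have an adjusted p under 0.05 over all genes. Ptgs2 at -5.20 and -3.68 is the widest difference of NDL from both other lines, and all receptor points are open. Its value against Met1 was known when the family was chosen, so that filled point is not read as a test. The Ptgs2 point against SSM2 uses the same NDL arrays.

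None of the 4 receptors passed the test in any contrast of the main fit on all arrays. Over all genes 19.1% passed between NDL and Met1, 16.9% between NDL and SSM2 and 11.8% between Met1 and SSM2. With only 4 genes, none passing is not far from these shares. The span of line means was 0.32 for Ptger1, 0.52 for Ptger2, 0.66 for Ptger3 and 0.53 for Ptger4. It was wider for each measured enzyme, at 1.085 for Ptges2, 1.68 for Ptges, 2.65 for Hpgd and 5.20 for Ptgs2, for which the family was chosen. Ptger4 (feature 10427461), which raises cyclic AMP, read 6.50, 6.49 and 6.42 in NDL, 6.96, 6.90 and 7.15 in Met1, and 7.24, 6.92 and 6.39 in SSM2. NDL was tightly grouped and below every Met1 array, with a log2 difference of -0.53 (95% interval -0.98 to -0.08, adjusted p = 0.098) that passed without SSM2 replicate 1 (adjusted p = 0.0478) or 3 (adjusted p = 0.0185). This difference also passed with the 2 lines fitted alone. Against SSM2 the NDL difference was -0.38 (adjusted p = 0.204), and it passed at -0.61 without SSM2 replicate 3 (adjusted p = 0.0221). Ptger2 (feature 10414271), the other cyclic AMP-raising receptor, read 5.20, 5.30 and 4.95 in NDL, 5.46, 5.47 and 5.73 in Met1, and 5.29, 5.12 and 4.70 in SSM2. Its Met1 arrays were above all others, yet the differences were small: -0.40 for NDL against Met1 (95% interval -0.80 to -0.01, adjusted p = 0.146) and 0.52 for Met1 against SSM2 (95% interval 0.12 to 0.91, adjusted p = 0.0982; 0.35 without SSM2 replicate 3, adjusted p = 0.211).

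Ptger3 (feature 10497079), the receptor that lowers cyclic AMP, read 5.06, 5.50 and 5.18 in NDL, 4.60, 4.81 and 4.93 in Met1, and 6.01, 5.54 and 4.77 in SSM2. Met1 had the lowest mean, and SSM2 spread over the ranges of both other lines. The Met1 mean of 4.78 lay under the 25th percentile of gene signal of 4.91, as did 3 of the 9 arrays. Ptger2, with a mean of 5.25 over the 9 arrays, was also not far above it. The sizes of differences in these 2 receptors are therefore uncertain. Met1 against SSM2 gave -0.66 (95% interval -1.31 to -0.01, adjusted p = 0.205), and passed without SSM2 replicate 3 (adjusted p = 0.0159) and with array weights. Ptger1 (feature 10573210), the calcium-linked receptor, read 6.43, 6.41 and 6.21 in NDL, 6.19, 6.31 and 6.10 in Met1, and 6.21, 6.21 and 5.67 in SSM2. Its arrays overlapped between all lines, and its widest difference was 0.32 for NDL against SSM2 (95% interval -0.05 to 0.68, adjusted p = 0.194; 0.14 without SSM2 replicate 3).

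Counted over the family, 2 of 9 members passed between NDL and Met1, where 19.1% of all genes passed. In NDL 1 was higher (Ptges2; 8.88% of all genes were) and 1 lower (Ptgs2; 10.2% of all genes were), and the Ptgs2 entry is part of why the family was taken up. That entry is therefore no support, and Ptges2 alone remains as a call in this contrast. Between NDL and SSM2, 4 of 9 passed against 16.9% of all genes, with 2 higher in NDL (Ptges2 and Slco2a1; 9.35% of all genes were) and 2 lower (Ptgs2 and Ptges; 7.52% of all genes were). The Ptgs2 entry here shares its NDL arrays with the known difference and is not independent of the choice of the family. Between Met1 and SSM2 none passed in limma, against 11.8% of all genes (7.10% higher and 4.71% lower in Met1), while 4 had an unadjusted p under 0.05. Those 4 were Ptges, Hpgd, Ptger2 and Ptger3. The median member difference was 0.15, -0.19 and 0.15 in the 3 contrasts, beside 0.06, 0.09 and 0.04 over all genes, so the family had no common direction. Arrays of the lines compared did not overlap for 6, 5 and 2 members, where 38.2%, 31.6% and 31.7% of all genes did not overlap. Without SSM2 replicate 3 the counts of members passing were 4, 6 and 3, without SSM2 replicate 1 the Met1 against SSM2 count was 1, and without NDL replicate 2 the NDL against SSM2 count was 2. The contrasts share lines, so they are not independent of each other.

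Some members were widely scattered within SSM2 and others were not. The SSM2 range of 3.35 for Ptgs2 was reached by 0.261% of all genes, that of 1.83 for Ptges by 2.24% and that of 1.55 for Slco2a1 by 3.61%, beside a median range of 0.34 over all genes. The SSM2 range was ordinary for Ptges2, reached by 46.4% of all genes, and for Ptger1 (30.0%), Ptger2 (26.7%) and Ptger4 (14.8%), with Ptger3 between at 6.48%. In NDL, by contrast, the range was 0.30 for Ptgs2 and 0.24 for Hpgd, with a median of 0.39 over all genes. Marker lists of other cell types moved along with the SSM2 arrays. The mean of 11 of 12 macrophage markers read 9.78, 9.08 and 8.45 in SSM2 replicates 1, 2 and 3, that of 12 fibroblast markers 10.16, 9.39 and 8.67, and that of 9 of 10 neutrophil markers 6.59, 6.04 and 4.81. The 12 endothelial markers read 7.70, 7.33 and 7.03, and 9 of 10 adipocyte markers 7.55, 6.96 and 5.82. The epithelial list was level at 10.43, 10.37 and 10.51. Replicate 1 was thus highest and replicate 3 lowest for Ptgs2, Hpgd, Slco2a1, Ptger2, Ptger3, Ptger4 and these 5 lists. Replicate 1 was the highest SSM2 array for 6 of the 9 members, against 34.9% of all genes. The part of the other cell types in the members' scatter was not tested.

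**Figure D3:**
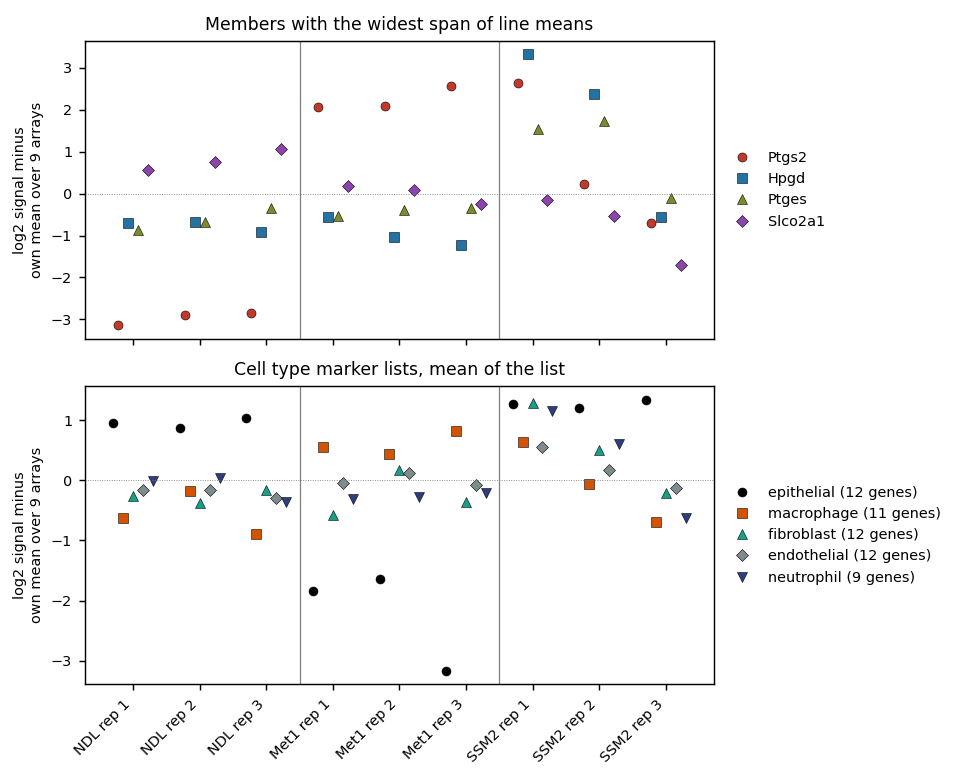
Log2 signal of each gene or list minus its own mean over the 9 arrays (vertical axis), by array (horizontal axis), for the 4 members with the widest span of line means (top) and 5 marker lists (bottom). In SSM2, Ptgs2, Hpgd, Slco2a1 and the macrophage, fibroblast and neutrophil lists are highest in replicate 1 and lowest in replicate 3, while the epithelial list is level.

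Between the lines the same lists moved less evenly with Ptgs2. The macrophage list mean was at 8.26 to 8.97 for NDL, 9.58 to 9.96 for Met1 and 8.45 to 9.78 for SSM2, with none of its 11 genes under the 25th percentile of signal in any line. Of these, 8 were lower in NDL than in Met1 and 2 lower than in SSM2, with none higher, where 10.2% and 7.52% of all genes were lower. Between Met1 and SSM2, 4 were higher and 1 lower in Met1, where 7.10% and 4.71% of all genes were. The fibroblast list mean ranged from 8.50 to 8.72 in NDL and 8.30 to 9.04 in Met1, which overlap, but its genes moved in opposite ways. In NDL 3 of the 12 were higher than in Met1 (Col1a1 by 2.14, Col1a2 by 2.08 and Col3a1 by 1.51) and 3 were lower (Dpt -3.02, Pdgfra -2.53 and Col6a1 -1.83). Of all genes 8.88% were higher and 10.2% lower. The epithelial list was at 10.04 to 10.20 for NDL, 6.01 to 7.53 for Met1 and 10.37 to 10.51 for SSM2, so that NDL and SSM2, which differed 12.8-fold in Ptgs2, were close in epithelial signal. The neutrophil list lay between 5.07 and 5.47 in NDL and 5.12 and 5.22 in Met1, and its defining markers Ly6g, Mmp8 and Retnlg had means under the 25th percentile. Its NDL mean was raised by Ltf, higher than in Met1 by 3.065 and than in SSM2 by 2.55 (limma adjusted p = 0.000616 and 0.00184). Camp was also higher in NDL than in Met1 (0.39, limma adjusted p = 0.033), and no gene of this list was called lower in NDL. The neutrophil list medians were -0.17 for NDL against Met1 and -0.73 for NDL against SSM2. The mast cell and platelet list, relevant as a known source of prostaglandin D2 and thromboxane, ranged from 5.29 to 6.31 over all arrays. It read 6.31, 5.84 and 5.29 in SSM2 replicates 1, 2 and 3. Its NDL mean was raised by Kit, higher than in Met1 by 3.035 and than in SSM2 by 3.71 (limma adjusted p = 0.00152 and 0.000669). The list medians were -0.13 for NDL against Met1 and -0.47 for NDL against SSM2. The part of these cells in the line differences was not tested.

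The genes whose pattern over the 9 arrays was most like that of Ptgs2 were Ltbp1, Gfra1, Steap4, Abcb1b and Pcolce2. Likeness was the root mean square difference after each gene was centred on its own mean, and it ran from 0.88 for Ltbp1 to 1.12 for Pcolce2 (log2 units), so even the nearest gene was not close. Ltbp1, a binding protein of latent TGF-beta, was at 6.90 to 7.58 for NDL, 10.48 to 11.08 for Met1 and 9.29 to 10.72 for SSM2. Steap4, a metalloreductase, had means of 6.41, 9.85 and 9.74 in NDL, Met1 and SSM2, and Abcb1b, a drug efflux pump, 5.05, 8.21 and 7.05. All 5 were lowest in NDL. The pattern of Hpgd had closer company, with differences of 0.25 for Cyp3a57, a cytochrome P450, 0.39 for the membrane protease Tmprss6, 0.44 for Cxcr2, 0.46 for Rassf9 and 0.46 for the membrane protease Hpn. Cxcr2, the chemokine receptor of neutrophils, read 7.79, 6.78 and 4.30 in the SSM2 arrays and 3.86 to 4.58 elsewhere, and Hpn read 9.01, 8.67 and 6.53 in SSM2. These genes shared with Hpgd the drop in SSM2 replicate 3. The genes were picked for likeness over these same arrays, so the low NDL values and the drop in SSM2 replicate 3 follow from the selection. The arrays of a line also share their tumour line and normalization, so likeness over 9 arrays is a description only.

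**Figure D4:**
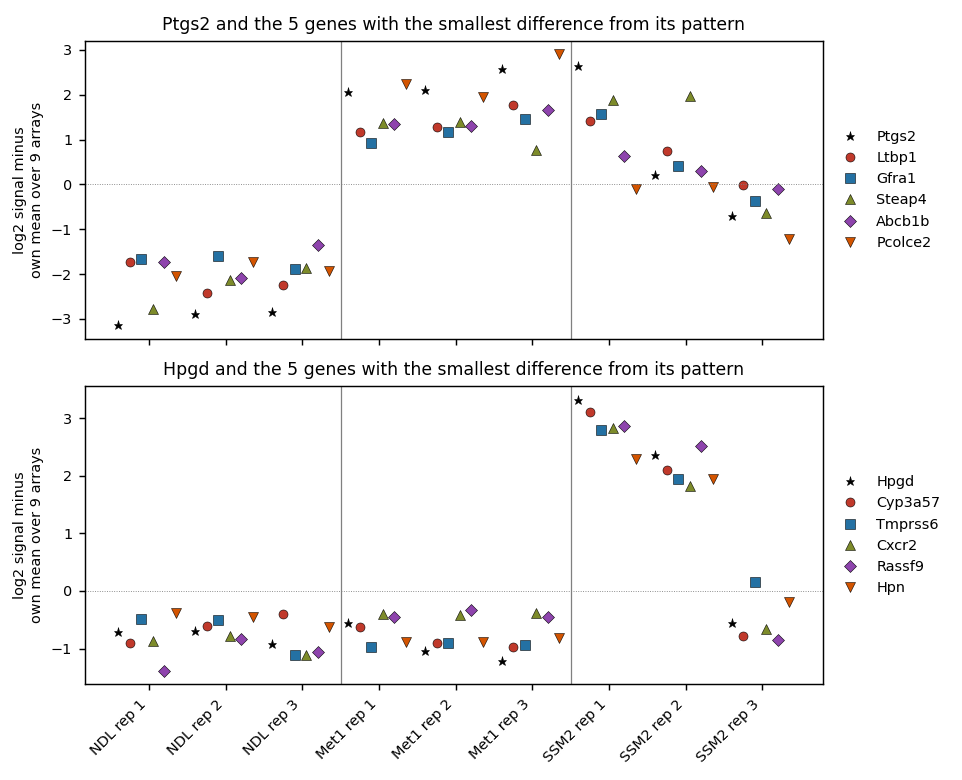
Log2 signal of each gene minus its own mean over the 9 arrays (vertical axis), by array (horizontal axis), for Ptgs2 (top) and Hpgd (bottom), each with the 5 genes of smallest root mean square difference. The neighbours of Ptgs2 share its low NDL values, and those of Hpgd its high values in SSM2 replicates 1 and 2, as follows from how they were picked.

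Upstream of the cyclooxygenases, most genes that release arachidonic acid or handle its precursors did not pass the test. Of 19 measured, 3 were higher in NDL than in Met1 and none lower, and 2 were higher than in SSM2 and none lower. Over all genes, 8.88% were higher and 10.2% lower in NDL than in Met1, and 9.35% higher and 7.52% lower than in SSM2, so 2 of 19 is near the share of all genes. The list medians were 0.17, 0.19 and 0.06 in the 3 contrasts, beside 0.06, 0.09 and 0.04 over all genes. Mgll, the monoacylglycerol lipase that can feed arachidonic acid to cyclooxygenases, read 9.17, 9.31 and 9.05 in NDL, 6.39, 6.53 and 6.50 in Met1, and 7.77, 6.83 and 6.28 in SSM2. Every NDL array was above all others, with log2 differences of 2.70 from Met1 (SE 0.32, adjusted p = 0.000738) and 2.22 from SSM2 (SE 0.32, adjusted p = 0.00238). Pla2g6, a calcium-independent phospholipase, was higher in NDL by 1.496 than in Met1 (adjusted p = 5.85e-05) and by 1.15 than in SSM2 (adjusted p = 0.000202). Faah, which breaks down the arachidonic acid amide anandamide, was higher in NDL than in Met1 by 1.15 (adjusted p = 0.0032). These 5 calls stood in all 9 fits with 1 array left out. Pla2g4a, the cytosolic phospholipase usually paired with Ptgs2, was at 6.69 to 8.54 for NDL, 8.76 to 9.39 for Met1 and 7.53 to 9.50 for SSM2, and passed in no contrast, with -1.52 for NDL against Met1 (adjusted p = 0.098). Acsl4, an acyl-CoA synthetase that prefers arachidonic acid, had log2 differences of 1.28 from Met1 (adjusted p = 0.102) and 1.54 from SSM2 (adjusted p = 0.0616) in NDL and did not pass either. Between Met1 and SSM2, Pla2g12a was higher in Met1 (0.95, adjusted p = 0.0416) and Faah lower (-0.74, adjusted p = 0.0331). The first call stood only without SSM2 replicate 3, and the second only without NDL replicate 2 or 3 or SSM2 replicate 1, among the fits with 1 array left out. Without NDL replicate 3, 5 genes of this list were higher and 2 lower in NDL than in Met1, and 4 higher and 1 lower than in SSM2.

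Among the other prostanoid enzymes, 12 measured, 2 were higher and 3 lower in NDL than in Met1, and 2 higher and 1 lower than in SSM2 (list medians -0.24 and -0.26). The shares of all genes were 8.88% and 10.2% against Met1 and 9.35% and 7.52% against SSM2, so 1 of 12 lower than in SSM2 is near that share. Cbr1, a carbonyl reductase that can convert prostaglandin E2 to F2α, was higher in NDL than in Met1 (log2 difference 2.26, SE 0.40, adjusted p = 0.00551) and than in SSM2 (1.66, SE 0.40, adjusted p = 0.0253). The second call was lost without any 1 of NDL replicates 1 and 2 and SSM2 replicates 1 and 2 (adjusted p up to 0.0799), and SSM2 replicate 3 at 8.55 was above the other SSM2 arrays at 7.20 and 6.71. Ptgds, a prostaglandin D synthase, was higher in NDL by 0.69 than in Met1 (adjusted p = 0.00342) and by 0.74 than in SSM2 (adjusted p = 0.00313). The aldo-keto reductase Akr1b8 was lower in NDL than in Met1 (-2.60, adjusted p = 0.00331) and than in SSM2 (-2.18, adjusted p = 0.00918). Tbxas1, the thromboxane synthase, and Hpgds, the haematopoietic prostaglandin D synthase, were lower in NDL than in Met1 (-1.71, adjusted p = 0.0228, and -1.28, adjusted p = 0.0344). Both are known macrophage genes, and they were lower where the macrophage list was lower; its part in these results was not tested. The Tbxas1 call was lost without NDL replicate 1 or Met1 replicate 1 or 3, and the Hpgds call without NDL replicate 1 or 2 or any 1 of the 3 Met1 arrays (adjusted p up to 0.0881 and 0.126). None of the 12 passed between Met1 and SSM2 in limma (list median 0.06), although 1 was higher in Met1 without NDL replicate 2 or SSM2 replicate 1. In the NDL against SSM2 contrast 3 were lower in NDL without NDL replicate 3, and 2 without SSM2 replicate 3.

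The receptors and export genes of the other prostanoids had few calls. Of 7 measured, 1 passed in any contrast: Ptgfrn, a membrane partner of the prostaglandin F receptor, was lower in NDL than in Met1 (log2 difference -0.60, SE 0.11, adjusted p = 0.00577). Of all genes 10.2% were lower in NDL than in Met1, so 1 of 7 is near that share. Ptgdr and Ptgfr had means under the 25th percentile of signal, where a difference has an uncertain size. The list medians were 0.15, 0.24 and 0.14, and 1 further gene passed without NDL replicate 3 (higher in NDL) or without Met1 replicate 3 (higher in Met1 than in SSM2). The exporter Abcc4 was at 6.69 to 7.49 for NDL, 6.96 to 7.27 for Met1 and 6.14 to 7.02 for SSM2, which overlap. In the leukotriene branch, 13 measured, 1 gene was higher and 2 lower in NDL than in Met1 (list median 0.07), and 1 was higher in Met1 than in SSM2 (list median 0.08), where 8.88%, 10.2% and 7.10% of all genes were. Alox5ap, the 5-lipoxygenase activating protein of myeloid cells, was lower by 1.71 on the log2 scale (adjusted p = 0.0227), again beside the lower macrophage list, whose part was not tested, and the call was lost without NDL replicate 1 or Met1 replicate 1 or 3 (adjusted p up to 0.0822). Cysltr2, near background at means of 3.45, 3.95 and 3.45 in NDL, Met1 and SSM2, was higher in Met1 than in both other lines (adjusted p = 0.0329 and 0.0457). Alox12e was higher in NDL than in Met1 by 0.56 (adjusted p = 0.033). The Alox12e call and the Cysltr2 call between NDL and Met1 each stood in 4 of the 9 fits with 1 array left out, and the Cysltr2 call between Met1 and SSM2 in 1, that without Met1 replicate 1. None of the 13 passed between NDL and SSM2 in limma (list median -0.03), although without NDL replicate 3 there were 2 higher and 1 lower in NDL, and without SSM2 replicate 3 there was 1 lower. Without NDL replicate 3 the NDL against Met1 counts were 2 higher and 3 lower, and without SSM2 replicate 3 there were 2 lower in Met1 than in SSM2.

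Genes often induced together with Ptgs2 by inflammatory signals mostly did not pass the test, and those called in an NDL contrast were lower in NDL. Of 20 measured, 3 were lower in NDL than in Met1 and 4 lower than in SSM2, with none higher, where 10.2% and 7.52% of all genes were lower. The list medians were -0.65 and -0.43, with 0.21 between Met1 and SSM2. The pentraxin Ptx3 read 5.71, 6.19 and 5.31 in NDL, 9.80, 9.42 and 10.42 in Met1, and 5.98, 5.98 and 5.82 in SSM2. It was thus high in Met1 alone (NDL against Met1 -4.14, adjusted p = 5.79e-05; Met1 against SSM2 3.96, adjusted p = 0.000125), while Ptgs2 was high in SSM2 too. Has2, a hyaluronan synthase, was instead lower in NDL than in SSM2 (-3.93, SE 0.68, adjusted p = 0.00612), where it read 10.70, 8.34 and 8.39. Plaur, the urokinase receptor, followed the Ptgs2 order, lower in NDL than in Met1 (-2.10, SE 0.22, adjusted p = 0.000415) and in SSM2 (-1.89, SE 0.22, adjusted p = 0.000831), as did the hyaluronan-binding protein Tnfaip6 (-1.98, adjusted p = 0.00176, and -1.11, adjusted p = 0.0289). Icam1, an adhesion molecule, was also below SSM2 in NDL (-1.12, adjusted p = 0.0483). The Icam1 call stood in 3 of the 9 fits with 1 array left out, and the Tnfaip6 call against SSM2 was lost without NDL replicate 1 or SSM2 replicate 1 or 2. The interleukin Il6 read between 2.84 and 3.14 in all arrays, no higher than the Y-linked signals, and the cytokine Il1b, an inducer of Ptgs2, was at 6.33 to 7.25 for NDL, 6.92 to 8.29 for Met1 and 6.12 to 8.83 for SSM2. Without SSM2 replicate 1 or replicate 3, 5 were lower in NDL than in Met1, and without NDL replicate 1 or SSM2 replicate 1 or 2, 2 were lower than in SSM2. Ptx3 was the 1 gene of the list called between Met1 and SSM2, and 2 were without SSM2 replicate 1.

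Genes known to respond to cyclic AMP, the messenger of Ptger2 and Ptger4, had few calls, and these went in both directions. Of 14 measured, 1 was higher and 2 lower in NDL than in Met1, 2 were higher in NDL than in SSM2, and 3 were higher in Met1 than in SSM2, with list medians of -0.28, 0.11 and 0.42. The shares of all genes were 8.88% higher and 10.2% lower, 9.35% higher, and 7.10% higher in turn, so the counts in the NDL contrasts are near them. The orphan nuclear receptor Nr4a1 read 9.93, 10.70 and 10.38 in NDL, 9.91, 9.89 and 8.98 in Met1, and 7.08, 7.18 and 7.41 in SSM2. It was lowest in SSM2, by 3.11 on the log2 scale from NDL (adjusted p = 0.00022) and 2.37 from Met1 (adjusted p = 0.00125), and high in NDL where Ptgs2 was low. Its relative Nr4a2 was highest in Met1 (NDL against Met1 -1.45, adjusted p = 0.00081; Met1 against SSM2 1.69, adjusted p = 0.000583). Ppargc1a, a metabolic coactivator, was higher in NDL than in Met1 (2.32, adjusted p = 0.00463) and in SSM2 (2.55, adjusted p = 0.00373), where its means of 4.56 and 4.33 were near background. The phosphatase gene Dusp1 was lower in NDL than in Met1 (-2.17, adjusted p = 0.0189), a call lost without NDL replicate 1 or Met1 replicate 1 or 2 (adjusted p up to 0.0793). The phosphodiesterase Pde4a was higher in Met1 than in SSM2 (0.66, adjusted p = 0.0139), lost without Met1 replicate 1 or 2 (adjusted p up to 0.0642). Without NDL replicate 3, 1 gene was lower in NDL than in SSM2. The Nr4a1, Nr4a2 and Ppargc1a calls stood in all 9 such fits.

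**Figure D5:**
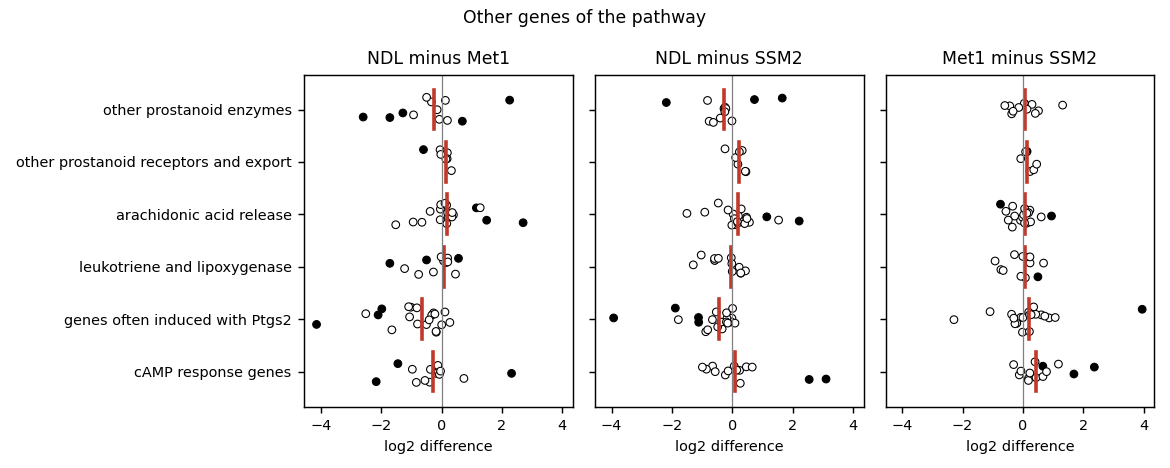
Log2 difference between lines (horizontal axis) for every measured gene of 6 pathway lists (rows); filled points have an adjusted p under 0.05 over all genes, and red bars are list medians. Genes often induced with Ptgs2 have their called points on the lower side in both NDL comparisons, and Ptx3 at 3.96 is the highest point between Met1 and SSM2.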

How the data were processed

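Expression was measured in 9 tumour samples on 1 Affymetrix Mouse Gene 1.0 ST array each. The deposited values are log2 signals made by the authors with RMA (oligo 1.40.2), per the submitters' processing notes; the labels give no array batch. Of 35556 features, 21789 carried 1 gene symbol, 1621 several and 12146 none; symbols were updated by Entrez ID to RefSeq GRCm38.p6 (21698 matched, 91 kept). The brightest feature stood for each of 19938 genes. All genes were fitted in limma 3.58.1 (R 4.3.3) with lmFit and eBayes on all 9 arrays (6 residual, 2.42 prior degrees of freedom), with two-sided contrasts adjusted by Benjamini-Hochberg and called at 0.05; intervals are unadjusted. The procedure was tested on simulated data. Members and lists were chosen with earlier results of these data known, and lists are given by counts and medians only. The text names all members, all called pathway genes (at most 5 per list and contrast) and, for members spanning at least 2 log2 units, the 5 genes nearest in pattern. Pla2g4a, Acsl4, Abcc4, Il6, Il1b, Ptgdr, Ptgfr, Ltf, Camp, Kit, Flt1 and the 6 fibroblast genes were added after their values were seen. Figures used matplotlib 3.10.9.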

Additional observations from a re-analysis of the deposited data

How the results depend on the processing

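Alternatives were signal filters, a trend with robust fitting, other scalings, array weights, other feature rules, a replicate block, 2 lines alone, a minimum fold of 1.5 (treat), and arrays left out. Members passing numbered 2, 4 and 0 for NDL against Met1, NDL against SSM2 and Met1 against SSM2, the first 2 counts including Ptgs2. With the 2 lines alone the first counts were 4 and 2, with the minimum fold 1 and 1, and with NDL replicate 3 as the only NDL array 0 and 1. Between Met1 and SSM2, 1 passed under either signal filter or equal medians (Ptges each time) and 3 with array weights. With 1 array left out the counts ran from 2 to 4, 2 to 6 and 0 to 3.

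Over all genes, 3814, 3364 and 2356 passed. The minimum fold gave 871, 644 and 542, NDL replicate 3 alone 1702 and 1190, the 2 lines alone 1755 for NDL against SSM2, and array weights 4007 for Met1 against SSM2. With 1 array left out the counts ran from 2371 to 6631, 1873 to 7018 and 1360 to 2754.

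Differences that changed sign were small and never passed. They were Ptges between NDL and Met1 (0.08) and Ptger2 between NDL and SSM2 (-0.09) with NDL replicate 3 alone, Ptger2 between NDL and SSM2 after cyclic loess (-0.04) or without SSM2 replicate 3 (-0.05), Ptger3 between NDL and SSM2 without SSM2 replicate 1 (0.09), and Ptger1 (-0.01) and Ptger4 (-0.08) between Met1 and SSM2 without SSM2 replicate 3. The cause was not tested. With 1 array left out these ran from -0.01 to 0.26 for Ptger1, -0.05 to 0.24 for Ptger2, -0.53 to 0.09 for Ptger3 and -0.08 to 0.35 for Ptger4.

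Deviations of same-numbered arrays from their line means had r from -0.347 to 0.288 across genes, without a common sign. With 3 arrays per line these values cannot exclude a pairing or a shared batch, and the labels give neither. With the replicate number as a block, 2, 3 and 0 members passed, the lost one being Ptges between NDL and SSM2 (adjusted p = 0.0522), and 3343, 2779 and 1968 genes.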
